A study of Mus musculus with 244 samples.

Results

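Lyve1-expressing macrophages of the mouse aortic arch were chosen by one measured value, a Lyve1 RPKM of 1 or more (RPKM counts reads per unit of transcript length and of sequencing yield). They came to 52 of the 238 cells analysed, 41 of 125 at baseline and 11 of 113 in regression. Lyve1 chose these cells and is left out of every result below. The 84 baseline cells and 102 regression cells with Lyve1 below 1 are called the other cells of their group. A gene is called listed in a cell at an RPKM of 1 or more.

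The study compared macrophages of atherosclerotic arches before and shortly after a surgical change of host. At baseline the cells came from Apoe-/- mice given a high fat diet for 16 weeks. In regression, arches of such donors had been placed in WT mice on chow and were collected 3 days after the operation, so a graft could hold cells of both mice. Both groups were digested with enzymes, sorted as CD45+ CD11b+ F4/80+, captured singly and sequenced with 1 cell per library. The labels name no animal and no number of pooled arches. Each group is therefore 1 sample, no p-value is given, and SDs and intervals describe cells only.

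LYVE1 is a membrane receptor for hyaluronan, first known from lymphatic vessels and also carried by tissue-resident macrophages of the vessel wall, heart and other organs. In arteries such macrophages lie in the outer wall, the adventitia, near smooth muscle, and are known for taking part in the turnover of collagen. Their usual companions are the folate receptor FOLR2, coagulation factor XIII A (F13a1), the mannose receptor (Mrc1), scavenger receptors and platelet factor 4 (Pf4), whereas lipid-laden plaque macrophages are known for Trem2, Cd9 and Gpnmb.

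Lyve1 (chromosome 7, 110850607 to 110863239, minus strand, mm10) did not mark one even class of cells. At baseline 41 of 125 cells passed the threshold (32.8%, exact 95% interval 24.7 to 41.8%), and 20 of them stood at 10 or more (16.0%, interval 10.1 to 23.6%). In regression 11 of 113 passed (9.73%, interval 4.96 to 16.8%) and 8 stood at 10 or more (7.08%, interval 3.11 to 13.5%). The intervals cover counting error only, and the libraries carried no molecular identifiers. The lowest cells inside the threshold stood at 1.08, 1.16, 1.19 and 1.25, and the highest outside it at 0.993, 0.982, 0.87 and 0.751, all at baseline.

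Low Lyve1 values came in 2 runs of consecutive baseline sample numbers. All 19 cells numbered 52 to 73 had some Lyve1, from 0.333 to 286.7, and so did all 14 cells numbered 112 to 125, from 0.263 to 19.1. Of these 33 run cells, 30 (90.9%) lay above 0 and below 20, against 6 of the 92 remaining baseline cells (6.52%). The runs held 17 of the 21 baseline cells with Lyve1 from 1 to below 10, but 6 of the 20 at 10 or more. F13a1 was also above 0 in all 33 run cells, and Retnla, a secreted protein of alternative activation, in all 19 of the first run. Lyve1 and Nod1 were the only 2 of 24475 genes with values above 0 and below 20 in at least 75% of run cells and under 25% of the rest, though the runs were found on Lyve1 itself. Run cells listed fewer genes (median 2302) than the rest (median 2717.5). What these runs are was not tested, and results are therefore also given for the 20 cells at 10 or more and without the run cells. Of the 18 baseline Lyve1 cells outside the runs 14 stood at 10 or more. These 2 settings thus share most of their Lyve1 cells and are not independent of each other.

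**Figure D1:**
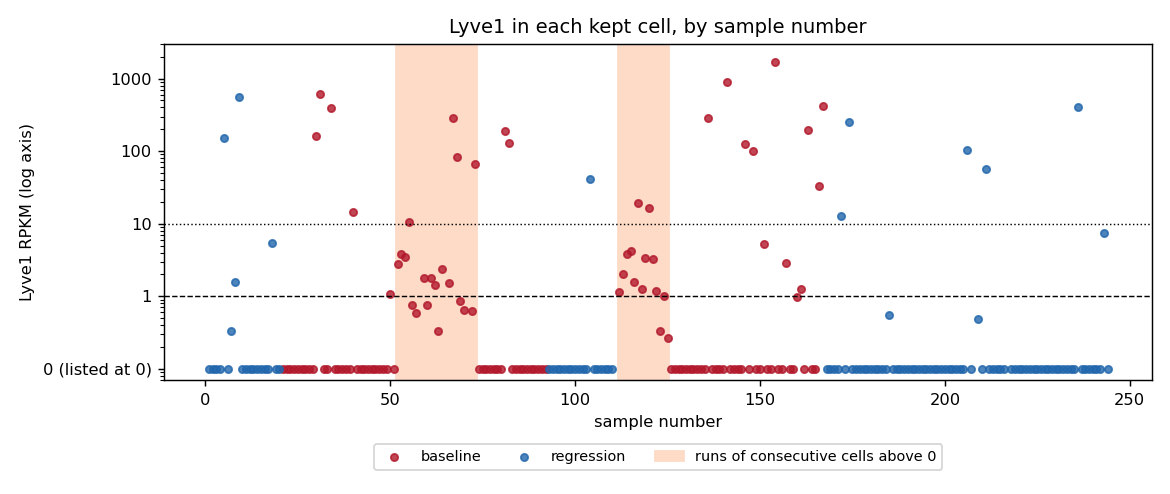
Lyve1 RPKM (log axis, cells at 0 drawn at the bottom) in each of the 238 cells against its sample number, baseline in red and regression in blue, with the 2 runs shaded and lines at 1 and 10. All 33 shaded cells lie above 0, most of them below 20, while outside the shading most cells are at 0 and 14 baseline cells stand at 10 or more.

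The plot of Lyve1 by sample number shows that the stretches also differed. Baseline numbers 21 to 92 held 19 Lyve1 cells of 69 (27.5%) and numbers 112 to 167 held 22 of 56 (39.3%). The 11 regression Lyve1 cells were 4 of 20 in numbers 1 to 20, 1 of 18 in numbers 93 to 111 and 6 of 75 in numbers 168 to 244. The sources used here do not say whether a stretch was one capture.

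Cell quality was close between the classes but not equal. Baseline Lyve1 cells listed a median of 2464 genes (1367 to 3479) and other baseline cells 2496.5 (1095 to 4378), whereas the cells at 10 or more listed 2725 and those from 1 to 10 listed 2273. Outside the runs the medians were 3051 and 2605.5. Mitochondrial genes held a median of 9.72% of summed RPKM in Lyve1 cells and 6.38% in the others, a gap seen in numbers 21 to 92 (10.1% and 6.06%) and not in numbers 112 to 167 (7.81% and 7.80%). The part of genes listed and of mitochondrial share in the results was not tested, except where cells matched on genes listed are named. Apoe, which the donors lacked, was listed in 3 of 41 baseline Lyve1 cells and in 11 of 11 regression ones, from 332 to 21969.

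The macrophage label held in genes that the rule did not use, in cells already sorted for macrophage proteins. All 41 baseline and all 11 regression Lyve1 cells listed at least 3 of 11 macrophage markers. So did 83 of 84 and 101 of 102 other cells, so the markers do not set the Lyve1 cells apart. Of these markers, Fcgr1 was listed in 22 of 41 baseline Lyve1 cells and 37 of 84 others, and Mertk in 10 and 22. Adgre1, the gene of the sorted F4/80 protein, was listed in 39 of 41 baseline Lyve1 cells. Csf1r, the receptor for macrophage colony-stimulating factor, was listed in 40 of 41, and Ptprc, which encodes CD45, in 39 of 41. Of the 11 regression Lyve1 cells, 11 listed Csf1r, 11 Ptprc, 9 Adgre1, 4 Mertk and 2 Fcgr1. The summed median of the macrophage markers was 3753 RPKM in regression Lyve1 cells and 5603 in other regression cells. At baseline it was 7396 and 7737. No Lyve1 cell listed Prox1, Flt4, Ccl21a, Mmrn1 or Reln of the lymphatic endothelium list. Prox1, Flt4, Ccl21a and Mmrn1 were at 0 throughout and Reln reached at most 0.177. The sixth marker of that list, Pdpn, was listed in 18 of 41 baseline Lyve1 cells and 37 of 84 others. At least 3 of 8 classical monocyte markers were listed in 13 of 41 Lyve1 cells and 25 of 84 others at baseline, and at least 3 of 9 neutrophil markers in 1 of 41 and 4 of 84.

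The companions of Lyve1 divided the members. Folr2 and F13a1 were listed together in 18 of 41 baseline Lyve1 cells (43.9%, interval 28.5 to 60.3%) and 17 of 84 others (20.2%, interval 12.3 to 30.4%). Among the cells at 10 or more they were listed together in 13 of 20 (65.0%, interval 40.8 to 84.6%), and among those from 1 to 10 in 5 of 21 (23.8%, interval 8.22 to 47.2%), close to the other cells. Outside the runs the counts were 11 of 18 and 14 of 74. The name Lyve1 macrophage therefore held in these markers for most cells at 10 or more, and for few of the cells from 1 to 10.

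A list of 28 genes of the resident Lyve1 macrophage programme, without Lyve1, gave the same division. Differences are of mean log2(RPKM + 1), Lyve1 cells minus other cells of the group, a scale that understates the differences of low genes. At baseline 24 of the 28 genes passed a filter (RPKM 1 or more in 10% of either class), 22 of the 24 were higher in Lyve1 cells, 10 of them by 1 or more, and the median difference was 0.93. Of all 7324 genes that passed the same filter, 41.8% were higher and 1.13% higher by 1 or more, and the median was -0.09. The list median was 1.17 in numbers 21 to 92 and 0.84 in numbers 112 to 167. With the 20 cells at 10 or more, 26 of 27 genes were higher, 23 of them by 1 or more, with a median of 1.95, against 52.4% higher and 4.86% higher by 1 or more of all genes. Without the run cells the same 2 counts were 26 and 23 of 27 with a median of 2.07, against 57.3% and 6.98% of all genes. For the cells from 1 to 10 the median was -0.26, with 5 of 21 genes higher and 0 by 1 or more, against 37.4% and 1.97% of all genes. The list was chosen with earlier results of these data known.

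Counted in single cells, baseline Lyve1 cells listed a median of 12 of the 28 programme genes (3 to 27) and other baseline cells 9 (0 to 20). The cells at 10 or more listed a median of 17.5 (4 to 27), and the cells from 1 to 10 listed 9 (3 to 15). Other cells matched 2 to 1 to the cells at 10 or more on genes listed had a median of 10 (0 to 20). The cell with the most programme genes, number 141, listed 27 of 28 and stood at 898 for Lyve1. Number 40, with Lyve1 at 14.7, listed 4 and had Folr2, F13a1, Maf and Mrc1 at 0. The ranges overlapped, and 3 other baseline cells had Ednrb, Folr2, Cbr2, F13a1 and Maf all at 10 or more, as 10 of the 20 cells at 10 or more had and 0 of the 21 cells from 1 to 10. These 5 genes were chosen after their values were seen.

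**Figure D2:**
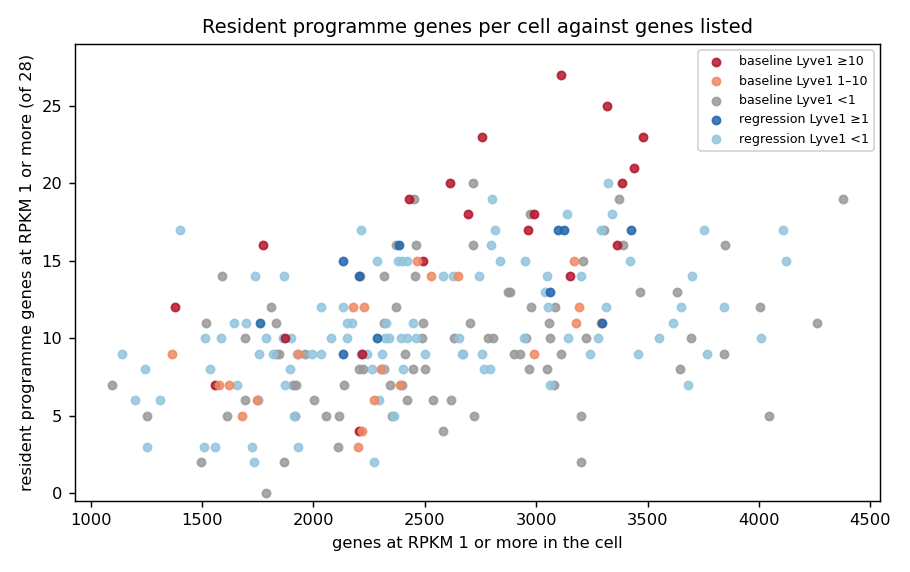
Number of the 28 resident programme genes at RPKM 1 or more in each cell against the number of genes listed in it, coloured by group and Lyve1 level. Baseline cells with Lyve1 at 10 or more reach 27 programme genes, above the highest other baseline cell at 20, while baseline cells from 1 to 10 lie between 3 and 15.

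In the plot of programme genes against genes listed, 5 baseline cells at 10 or more lay above every cell of the other classes. Matching on genes listed left the programme median positive, at 1.65 for the cells at 10 or more and 1.28 for all Lyve1 cells matched 1 to 1.

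Over the whole table few genes differed much. Of 4067 genes at RPKM 1 or more in 25% of either class, 4 were higher by 2 or more in baseline Lyve1 cells (0.0984%) and 11 lower (0.27%), each with the same sign in both stretches. The 4 were Ednrb, Ccl8, F13a1 and Cd38. For the cells at 10 or more, 34 of 4628 genes were higher (0.735%) and 37 lower (0.799%). Without the run cells 49 of 4588 were higher (1.07%) and 22 lower (0.48%). The cells from 1 to 10 had 2 of 4067 genes higher (0.0492%) and 50 lower (1.23%). Of the 12 highest genes, 5 were again among the 12 highest for the cells at 10 or more, as were 3 of the 12 lowest among the lowest.

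**Figure D3:**
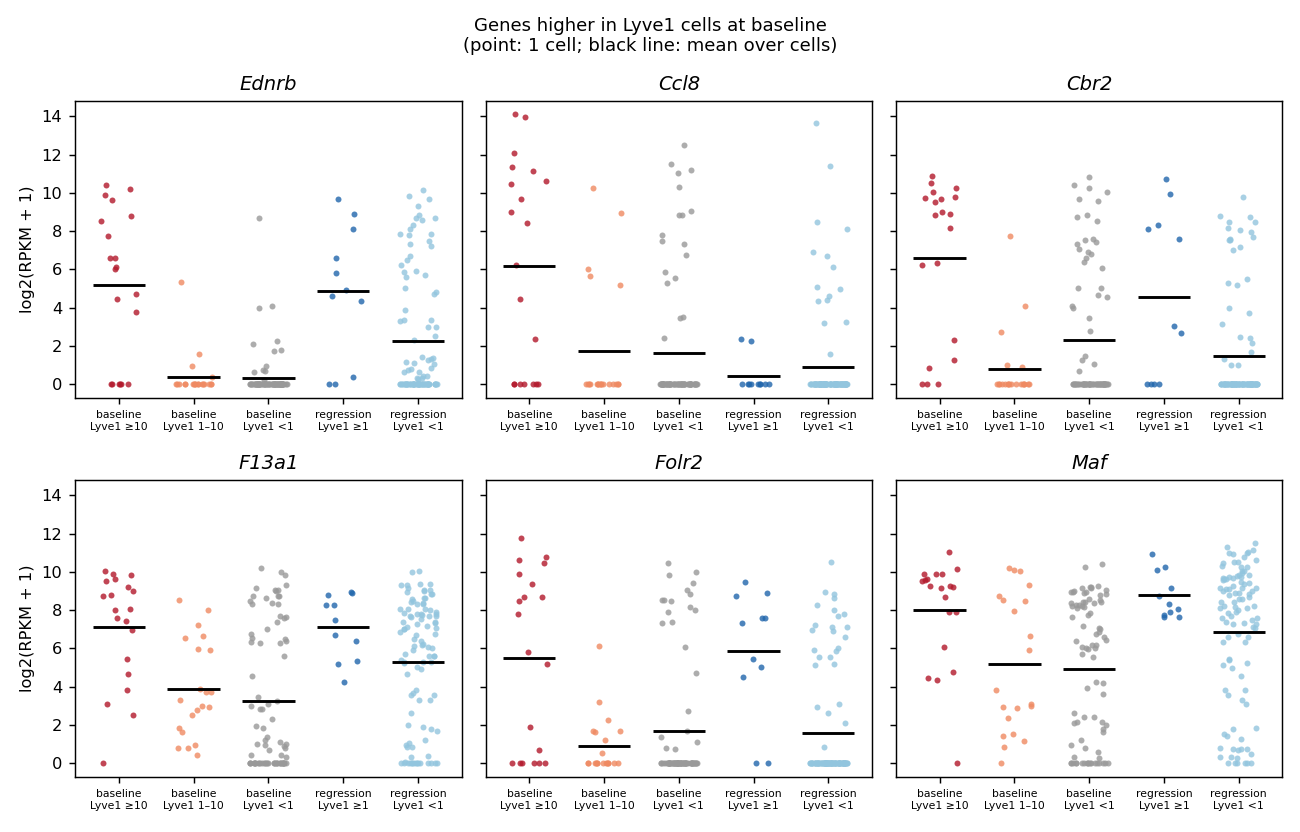
Log2(RPKM + 1) of 6 genes in single cells of 5 classes (baseline with Lyve1 at 10 or more, from 1 to 10 and below 1, regression with Lyve1 at 1 or more and below 1), with the mean as a black line. At baseline the cells at 10 or more stand highest for all 6 genes, with Ednrb listed in 14 of 20 against 7 of 84 other cells, and every class overlaps with the others.

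Among receptors, Ednrb (chromosome 14, 103814625 to 103844402, minus strand), the endothelin receptor type B, set the classes furthest apart. In the 20 cells at 10 or more it ran from 0 through a median of 67.0 to 1347 RPKM and was listed in 14 (interval 45.7 to 88.1%). It was listed in 2 of the 21 cells from 1 to 10 and in 7 of 84 other cells (interval 3.42 to 16.4%), whose highest value was 420. Most cells at 10 or more thus carried a transcript that few others did, though the ranges overlapped. The difference was 2.39 for all 41 Lyve1 cells (mean 2.72 ± 3.73 against 0.33 ± 1.19, SD over cells), 4.84 for the cells at 10 or more and 4.34 without the run cells.

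Folr2, the folate receptor (chromosome 7, 101839988 to 101857194, minus strand), ran from 0 through 138.6 to 3460 RPKM in the cells at 10 or more and was listed in 13 of 20. It was listed in 7 of 21 cells from 1 to 10, with a median of 0, and in 20 of 84 others, which reached 1424. Its difference was 1.45 over all Lyve1 cells, 3.82 at 10 or more and 3.47 without the run cells. Mrc1, the mannose receptor, was widely listed in every class, in 19 of 20 cells at 10 or more with a median of 240.2 and in 64 of 84 others with a median of 39.4. Its difference was 1.07 over all Lyve1 cells and 2.32 at 10 or more. Stab1, a scavenger receptor of the stabilin family, differed by 0.71 and 1.53.

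The C-type lectins were uneven. Clec10a, a galactose-binding lectin, was listed in 12 of 20 cells at 10 or more, 2 of 21 from 1 to 10 and 17 of 84 others, and differed by 0.94 over all Lyve1 cells and 2.68 at 10 or more. Cd209f, Cd209d and Cd209g, mouse relatives of DC-SIGN, were listed in 6, 3 and 4 of the 20 cells at 10 or more, in none of the 21 from 1 to 10, and in 5, 1 and 0 of the 84 others. Read as fewer than 3 cells, a count of 0 among 21 cells allows a share of up to 14.3% (exact upper limit 16.1%), and among 84 cells up to 3.57% (exact upper limit 4.30%). Timd4, the phosphatidylserine receptor TIM-4 of resident macrophages, was listed in 4 of 20, 0 of 21 and 2 of 84, and all 4 also listed Ednrb and Fcna. Cd163, the hemoglobin scavenger receptor, differed by 0.07 over all Lyve1 cells and 0.70 at 10 or more, with opposite signs in the 2 stretches in the latter (-0.70 and 2.06).

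Fcna, which encodes ficolin A, a secreted pattern-recognition protein of the lectin pathway of complement, was among the most selective genes. It was listed in 11 of 20 cells at 10 or more, from 0 through 11.4 to 1118 RPKM, in none of 21 cells from 1 to 10 and in 6 of 84 others. All 11 of these Fcna cells also listed Ednrb, whereas 1 of the 84 other cells listed both. Its difference was 1.51 over all Lyve1 cells and 3.52 at 10 or more.

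Other genes of complement and coagulation varied. F13a1 (chromosome 13, 36867178 to 37050244, minus strand), which encodes the A chain of the clot-stabilising transglutaminase, had a median of 261 RPKM in the cells at 10 or more (0 to 1070), 8.84 in those from 1 to 10 and 1.06 in the others (0 to 1163). It was listed in 36 of 41 Lyve1 cells and 42 of 84 others, and differed by 2.22, or 3.89 at 10 or more and 3.71 without the run cells, in all of which it was above 0. Cfp, properdin, which stabilises the convertase of the alternative pathway, differed by 1.28 over all Lyve1 cells and by 3.13 at 10 or more. C4b, complement C4, was listed in 14 of 20 cells at 10 or more, 4 of 21 from 1 to 10 and 20 of 84 others. The list of 15 complement and coagulation genes had 8 of 13 measured genes higher (41.8% of all genes), 4 by 1 or more (1.13%), with a median of 0.65. The list median was 0.58 at 10 or more, 0.05 with those cells matched on genes listed and -0.32 from 1 to 10. The C1q genes C1qa, C1qb and C1qc, whose product starts the classical pathway, were among those not higher over all Lyve1 cells.

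Chemokines moved in both directions. Ccl8 (chromosome 11, 82115185 to 82116799, plus strand), a chemokine of the monocyte chemoattractant group, was listed in 13 of 20 cells at 10 or more, from 0 through 208.9 to 17702 RPKM. It was listed in 5 of 21 cells from 1 to 10 and 18 of 84 others, which reached 5732. Its difference was 2.25 over all Lyve1 cells, 4.54 at 10 or more and 6.14 without the run cells, where it was the highest of the 6 plotted genes. Ccl9, a mouse chemokine that acts through CCR1, was listed in 20 of 20 cells at 10 or more with a median of 798.6, against 61 of 84 others with a median of 45.8, and differed by 1.28 and 3.59. Pf4, the chemokine CXCL4, had medians of 446.7 and 14.2 in these classes and differed by 0.95 and 3.05. Over the list of 12 CC chemokines 6 of 10 measured genes were higher (41.8% of all genes), with a median of 0.19, and at 10 or more 7 of 10 (52.4% of all genes), with a median of 1.49.

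Maf (chromosome 8, 115682942 to 115707794, minus strand), the transcription factor c-Maf of resident macrophages, had a median of 596.2 RPKM in the cells at 10 or more, 13.3 in those from 1 to 10 and 65.9 in the others, with 0 in at least 1 cell of each class. Its difference was 1.67, or 3.13 at 10 or more and 3.44 without the run cells. Across the 20 listed transcription factors 8 of 18 measured were higher (41.8% of all genes), with a median of -0.13. The list as a whole thus stood near the median of all genes (-0.09).

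Among enzymes and surface proteins, Cbr2, carbonyl reductase 2, was listed in 16 of 20 cells at 10 or more (0 through 464.6 to 1881 RPKM), in 3 of 21 from 1 to 10 and in 30 of 84 others. It differed by 1.31 over all Lyve1 cells and by 4.30 at 10 or more, next after Ednrb and Ccl8 there. Cd38, an NAD-consuming surface enzyme, was listed in 29 of 41 Lyve1 cells and 28 of 84 others and differed by 2.13. Unlike Cbr2 it was also listed in most cells from 1 to 10 (15 of 21, difference 1.39). Most of those values lay below 20 RPKM, many of them in run cells. Hmox1, heme oxygenase 1, differed by 1.03 and 2.58, and Gas6, the bridging ligand of the TAM receptors for apoptotic cells, by 0.97 and 2.12.

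The remaining genes among the 12 highest were Bet1 (difference 1.94), Mvb12a (1.89), Trim30a (1.81), Rtp4 (1.67), Per3 (1.53) and Gnptg (1.45). Bet1 and Mvb12a, which work in vesicle transport and endosomal sorting, were listed more often in cells from 1 to 10 (16 and 14 of 21) than at 10 or more (9 and 10 of 20). Trim30a and Rtp4 are interferon-induced genes. Over all Lyve1 cells the interferon list did not share their difference, with 5 of 11 measured genes higher (41.8% of all genes) and a median of -0.08. At 10 or more 9 of 13 were higher, 4 of them by 1 or more, against 52.4% and 4.86% of all genes. The list median was 0.36 there, against 0.03 for all genes, and -0.54 from 1 to 10. Its member Ifi27l2a differed by 1.07 over all Lyve1 cells and by 2.81 at 10 or more.

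**Figure D4:**
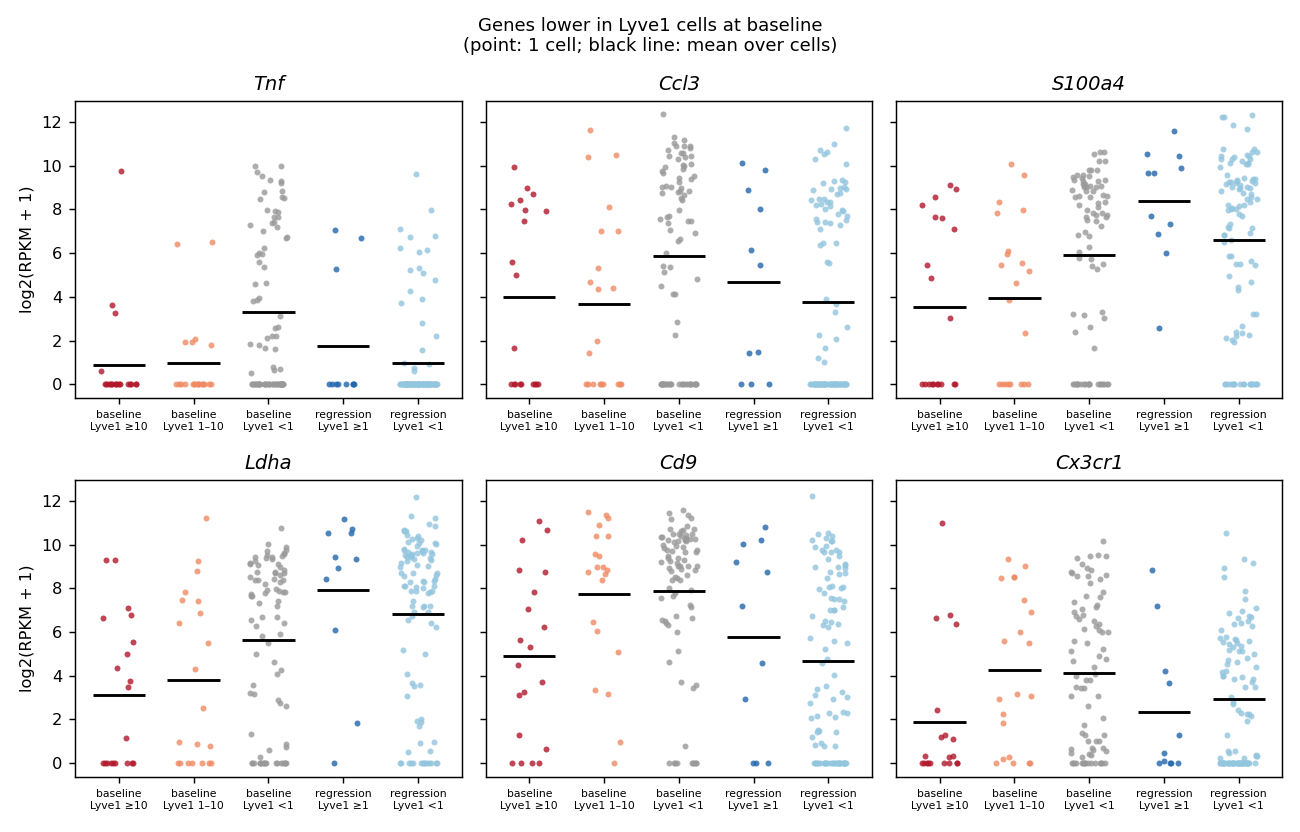
Log2(RPKM + 1) of 6 genes in single cells of the same 5 classes, with the mean as a black line. Tnf is listed in 3 of 20 baseline cells at 10 or more against 45 of 84 other baseline cells, Cd9 and Cx3cr1 are low in the cells at 10 or more but not in those from 1 to 10, and S100a4 and Ldha stand higher in regression Lyve1 cells.

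Genes of inflammation were lower in Lyve1 cells at baseline. Tnf (chromosome 17, 35199381 to 35202007, minus strand), tumour necrosis factor, was listed in 9 of 41 Lyve1 cells (6 of 21 from 1 to 10 and 3 of 20 at 10 or more) and in 45 of 84 others. Its highest value was 857 RPKM in the cells at 10 or more and 1020 in the others, so the ranges overlapped. The listed shares had intervals of 3.21 to 37.9% at 10 or more and 42.4 to 64.5% in the others. These cover counting error only, and Tnf was named for its low difference in the same cells. The difference was -2.40 over all Lyve1 cells, -2.47 at 10 or more and -1.96 without the run cells. Ccl3, the chemokine MIP-1 alpha, had a median of 2.97 in Lyve1 cells and 177 in the others and differed by -2.03, and Ccl4, MIP-1 beta, by -1.13. Il1b, interleukin 1 beta, was listed in 6 of 20 cells at 10 or more, 14 of 21 from 1 to 10 and 49 of 84 others. Of the 14 inflammatory cytokines 1 of 10 measured was higher and 3 were lower by 1 or more, against 41.8% and 4.08% of all genes. The list median was -0.73. The median was -0.39 at 10 or more and -0.22 without the run cells.

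Genes that respond to cell dissociation were lower too. Of 15 such immediate early and stress genes 3 were higher and 5 were lower by 1 or more, against 41.8% and 4.08% of all genes. The list median was -0.65. At 10 or more 8 were lower by 1 or more, against 5.35% of all genes, with a median of -1.12. Within numbers 21 to 92 and 112 to 167 that median was -0.26 and -0.28. Btg2, an antiproliferative early gene, differed by -1.94, Junb by -1.42, Nr4a1 by -1.40 and Fos by -1.24. These genes can be switched on by enzymatic digestion itself, and their part in the differences of Tnf, Ccl3 and Ccl4 was not tested.

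Genes of lipid-laden plaque macrophages were lower as a list. None of the 17 was higher in baseline Lyve1 cells and 3 were lower by 1 or more, against 41.8% and 4.08% of all genes. The list median was -0.48, against -0.09 for all genes, and -0.40 at 10 or more. Without the run cells it was -0.25, with 7 of 17 higher and 1 lower by 1 or more, against 57.3% and 3.46% of all genes. Cd9, a tetraspanin, had a median of 30.2 RPKM in the cells at 10 or more, 451 in those from 1 to 10 and 545 in the others, and differed by -1.53 over all Lyve1 cells and -2.98 at 10 or more. Trem2, the lipid receptor of these macrophages, had medians of 29.3, 110 and 165 in the same order and differed by -0.53 and -1.38. Cd63, a lysosomal tetraspanin, and Fabp5, a fatty acid binding protein, differed by -1.44 and -1.08, and without the run cells by 0.39 and -0.30.

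Cx3cr1, the fractalkine receptor, was listed in 8 of 20 cells at 10 or more, 15 of 21 from 1 to 10 and 59 of 84 others, and differed by -1.04 over all Lyve1 cells and -2.24 at 10 or more. Ccr2, the receptor that draws monocytes to CCL2, was not set apart in this way. It was listed in 13 of 20 cells at 10 or more and 61 of 84 others and differed by -0.54 and -0.13, with opposite signs in the 2 stretches at 10 or more (-1.02 and 1.08).

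The 12 lowest genes were otherwise of general cell function. They included Atp6v0c (-2.19), a subunit of the lysosomal proton pump, S100a4 (-2.19), a calcium-binding protein, Sumo2 (-2.17), Park7 (-2.16), Ldha (-2.16), the lactate dehydrogenase A chain, Psmb1 (-2.14), a proteasome subunit, Hsd17b10 (-2.11), Dnase1l1 (-2.11) and Gpx4 (-1.94), a lipid peroxide-reducing enzyme, beside Tnf and Ccl3. S100a4 was listed in 23 of 41 Lyve1 cells and 64 of 84 others, and Ldha in 22 of 41 and 63 of 84. At 10 or more their differences were -2.41 and -2.52. Sumo2 differed by -4.36 in numbers 21 to 92 and by -0.01 in numbers 112 to 167, so its value rests on the first stretch.

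MHC class II genes depended on where Lyve1 was set. Over all baseline Lyve1 cells 1 of 10 measured genes of the presentation list was higher (41.8% of all genes) and the median was -0.61. At 10 or more 8 of 10 were higher (52.4% of all genes) with a median of 0.54. From 1 to 10 none was higher and 6 were lower by 1 or more, against 37.4% and 8.22% of all genes, and the median was -1.78. H2-Aa, the class II alpha chain, had a median of 4967 RPKM in the cells at 10 or more, 185 in those from 1 to 10 and 3754 in the others, with differences of -1.24 over all Lyve1 cells and 0.92 at 10 or more. Cd74, the invariant chain, went from -0.65 to 0.92 in the same way. At 10 or more, both were higher in numbers 21 to 92 (2.72 and 2.06) and lower in numbers 112 to 167 (-0.72 and -0.24).

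**Figure D5:**
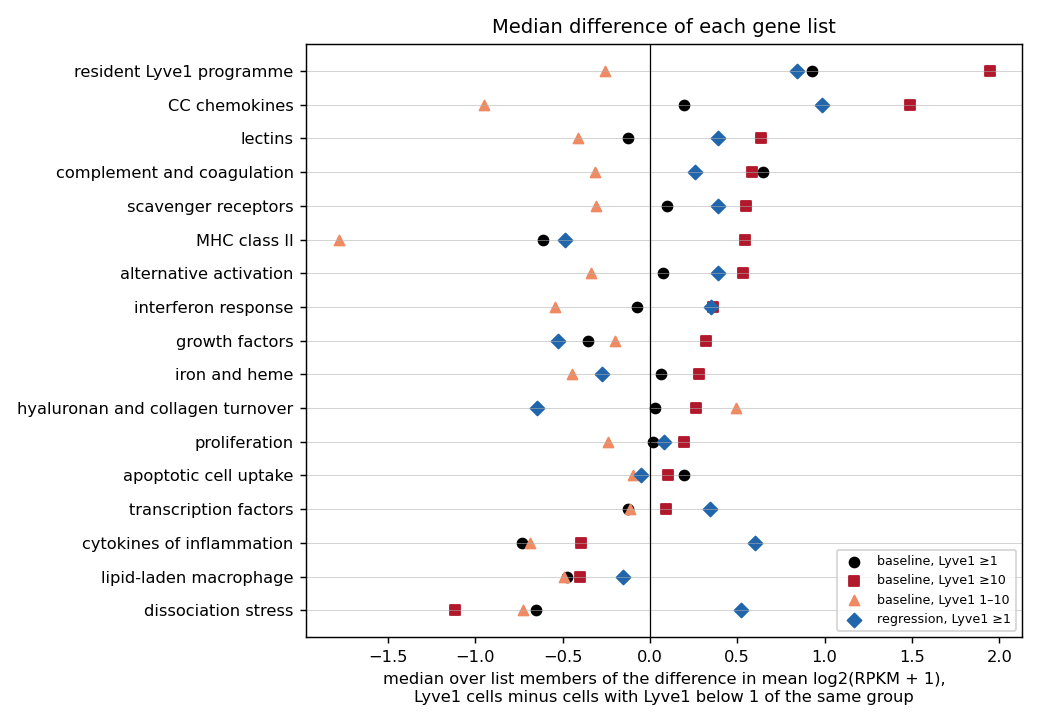
Median difference in mean log2(RPKM + 1) of each of 17 gene lists for all baseline Lyve1 cells (circles), those at 10 or more (squares), those from 1 to 10 (triangles) and regression Lyve1 cells (diamonds), each against the cells with Lyve1 below 1 of the same group. The resident programme is highest at 10 or more (1.95) and below 0 from 1 to 10 (-0.26), and the lipid-laden list is below 0 in all 4.

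In the plot of list medians, the lists not yet described lay between -0.35 and 0.20 over all baseline Lyve1 cells. Scavenger receptors (median 0.10), alternative activation (0.07), iron and heme (0.06), hyaluronan and collagen turnover (0.03), proliferation (0.02), lectins (-0.13) and growth factors (-0.35) had no gene lower or higher by 2 or more. Of the hyaluronan and collagen list, 5 of 17 genes were measured. Cd44, the other main hyaluronan receptor, was listed in 37 of 41 Lyve1 cells and 69 of 84 others and differed by 0.02, or -1.06 at 10 or more. Mmp9, a gelatinase, was listed in 3 of 41 and 1 of 84. Igf1, a growth factor of resident macrophages, was listed in 30 of 41 and 63 of 84 and differed by -0.35. Of the uptake list for apoptotic cells 8 of 12 were higher (41.8% of all genes), with a median of 0.20. Its members Axl and Havcr2 differed by -1.38 and -1.02.

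The 11 regression Lyve1 cells were compared with the 102 other regression cells, where 142 of 4554 genes were higher by 2 or more (3.12%) and 26 lower (0.571%). They listed a median of 14 of the 28 programme genes (9 to 17) and the others 10 (2 to 20), at similar numbers of genes listed (2386 and 2349.5). Of 23 measured programme genes 18 were higher, 10 by 1 or more, with a median of 0.84, against 56.3% and 13.2% of all genes and a median of 0.12. Folr2 and F13a1 were listed together in 9 of 11 (81.8%, interval 48.2 to 97.7%) and in 24 of 102 (23.5%, interval 15.7 to 33.0%). All 11 regression Lyve1 cells listed Apoe, which the donors lacked. The Apoe count of the other regression cells is not given here, so this is not read as a trait of Lyve1 cells. Whether these cells came from donor or host was not tested.

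Folr2 ran from 0 through 160 to 698 RPKM in regression Lyve1 cells and had a median of 0 in the others, a difference of 4.28. Ednrb was listed in 8 of 11 and in 41 of 102 others, a difference of 2.58, so it was listed more often among other cells in regression than at baseline (7 of 84). F13a1 was listed in 11 of 11, from 18.0 through 175 to 485, and Maf in 11 of 11, from 195 through 314 to 1984. Their differences were 1.83 and 1.90. Cbr2 (3.09), Fcna (3.13) and Ltc4s (3.62), the leukotriene C4 synthase, were higher as well, and all 5 Lyve1 cells with Fcna again listed Ednrb. Among the 102 other regression cells 14 listed Fcna, and 10 of these 14 also listed Ednrb, so the pairing was not confined to Lyve1 cells.

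Several genes that were higher in Lyve1 cells at baseline were not so in regression. Ccl8 was listed in 2 of 11 regression Lyve1 cells, at no more than 4.14 RPKM, and 15 of 102 others, a difference of -0.49. Clec10a was listed in 1 of 11 and 19 of 102 others, C4b in 1 of 11 and 12 of 102, and Gas6 in 0 of 11 and 17 of 102. A count of 0 among 11, read as fewer than 3 cells, allows a share of up to 27.3% (exact upper limit 28.5%). Timd4 was listed in no regression cell of either class. Igf1 and Ccl12, which were not higher over all Lyve1 cells at baseline, were listed in 0 of 11 and in 17 and 32 of 102 others. Cd38 differed by 0.28 and was listed in 9 of 11 and 73 of 102. Tnf was listed in 3 of 11 and 18 of 102, a difference of 0.76, and Ccl3 differed by 0.90. The cytokine and dissociation lists had medians of 0.60 and 0.52 and the lipid-laden list -0.15, with 2 of 16 genes lower by 1 or more, against 5.32% of all genes. Whether baseline and regression differ in these respects was not tested.

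Markers of other cell types were also present in the regression Lyve1 cells. At least 3 classical monocyte markers were listed in 9 of 11, with a summed median of 1012 RPKM (403 to 4570), and in 65 of 102 others, with a summed median of 993 (0 to 17683). Ccr2 was listed in 11 of 11, from 22.8 through 198 to 914. At least 3 of 9 neutrophil markers were listed in 3 of 11 and 12 of 102. Among the 11 cells, Cxcr2 was listed in 7, Csf3r in 6, S100a8 in 3, S100a9 in 2, and Mmp8 and Retnlg in 0. Ly6g, Ltf and Ngp were at 0 in all Lyve1 cells, and 0 of 84 other baseline cells listed them. The part of the monocyte and neutrophil markers in the regression values was not tested.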

How the data were processed

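The authors deposited 1 table of RPKM values for 24475 genes in 244 single-cell libraries of baseline and regression macrophages. Capture used the Fluidigm C1 system and libraries were made with SMARTer Ultra Low and Nextera XT kits, per the labels' protocols, whose text speaks of islet cells. The submitters' processing notes list CASAVA 1.8.2, FastQC and the mm10 build. Aligner, annotation and RPKM program: not given in the sources used here. Read depth is unknown.

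Columns were matched by the number in each sample's title. Near-copy libraries (3 baseline pairs, r above 0.99, against at most 0.654 for other pairs) were averaged, and 3 regression cells with under 1000 genes at RPKM 1 or more were left out. Values were compared as log2(RPKM + 1) with pandas 2.3.3 and numpy 2.4.6, and shares have exact Clopper-Pearson 95% intervals from scipy 1.17.1. The code was tested on simulated data. Doublets were not called.

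Named genes were the 12 highest and 12 lowest differences among genes listed in 25% of either class, with one sign in both stretches (numbers 21 to 92 and 112 to 167) and in the ratio of means. Added were the 3 largest absolute differences of each of 17 lists and 22 genes by name. Predicted, Y-linked and receptor-segment genes were left out. Further list members are examples picked with their values in view. The members and lists were chosen with earlier results of these data known. Some genes that the rule names are not reported here. Gene positions are those of GENCODE vM21 on the same build.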

Additional observations from a re-analysis of the deposited data

Results flagged for a closer look

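Among the named genes, 8 had a difference between Lyve1 cells and other cells of 1 or more in size at baseline and in the opposite direction in regression. Lower in Lyve1 cells at baseline and higher in regression were S100a4 (-2.19 and 1.79), Sumo2 (-2.17 and 2.26), Ldha (-2.16 and 1.07), Dnase1l1 (-2.11 and 1.85), Gpx4 (-1.94 and 1.48), Cd9 (-1.53 and 1.11) and Klf6, a zinc finger transcription factor (-1.16 and 1.43). Mvb12a went the other way (1.89 and -1.45), with none of the 11 regression Lyve1 cells listing it. S100a4 was listed in 11 of 11 regression Lyve1 cells, from 5.05 through 802 to 3040 RPKM, and in 85 of 102 others. With 1 sample a group, the difference between baseline and regression was not tested.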

How the results depend on the processing

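The 2 stretches, their equal weighting and the ratio of means are set aside here because genes were named for one sign in them. Over the other 13 settings the 15 genes past a difference of 2 kept their sign in 195 of 195 values and the 77 named genes in 925 of 1001. The settings share most of their cells and the 15 genes were picked by size in them. A kept sign was therefore likely beforehand. The counts of genes past 2 (4 higher and 11 lower) were not stable. They were 19 and 83 with a pseudocount of 0.1, 0 and 0 with a pseudocount of 10, 65 and 117 by the ratio of mean RPKM, and 8 and 22 after rescaling each cell to one sum. They were 23 and 43 in numbers 21 to 92 and 10 and 54 in numbers 112 to 167. With at least 2000 genes a cell, 9 were higher. Without cells with 3 markers of other types, 2 were higher. With 2 other cells nearest in genes listed for each Lyve1 cell, 20 were lower, and with 1 such cell, 26. Numbers 112 to 167 held too few other cells for 2 each, so all 34 were used there. The remaining settings were chosen after seeing the data, apart from the limit of 10. Counts were 34 and 37 with Lyve1 at 10 or more, 35 and 73 with those cells matched on genes listed, 76 and 34 with them but without run cells, 49 and 22 without run cells, and 2 and 50 with Lyve1 from 1 to 10. The resident programme median (0.93) was 0.55 with a pseudocount of 10, 1.95 at 10 or more, 1.65 with those matched, 2.41 at 10 or more without run cells, 2.07 without run cells and -0.26 from 1 to 10. The baseline share of Lyve1 cells (32.8%) was 16.0% at 10 or more and 19.6% without run cells. The gap in median programme genes per cell (3) was 8.5 at 10 or more and 0 from 1 to 10. The lipid-laden, cytokine and dissociation medians were below 0 in 18 of 18 baseline settings. The cause of these shifts was not tested. No paired analysis was possible because each group is 1 sample and no test was made. A filter of 10% or none on genes left the counts at 4 and 11. Depth is unknown, so a gene at 0 in a cell may have been missed.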
